A study of Homo sapiens with 12 samples.

Results

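The genes described here are 39 protein-coding members of the ATP-binding cassette (ABC) superfamily, measured in Huh7 and HLF, human cell lines from hepatocellular carcinoma. They were chosen by name: every protein-coding gene of the deposited table called ABCA to ABCG followed by a number, leaving out 6 exporters of bile constituents and sterols (ABCB4, ABCB11, ABCC2, ABCC3, ABCA1 and ABCG1). The name pattern matched 46 genes, of which ABCC13 is listed as a pseudogene and was dropped. The 39 members stand among 58735 genes in the table, 19951 of them protein-coding. ABCG5 and ABCG8, which form a sterol exporter of the bile canaliculus, also match the rule and were kept, so the set is not free of sterol exporters.

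RNA was measured in wild-type cells of both lines under 3 culture conditions, giving 6 groups of 2 biological replicates and 12 libraries. Huh7 and HLF were grown flat (2D) and harvested on day 2, near confluence. Both were also grown in Matrigel, a basement membrane extract, in 3D by 2 methods and harvested on days 6 to 8. In Inject-Embed, 4000 Huh7 or 2000 HLF cells per well were injected into a set gel, and in Mix-Embed, 20000 Huh7 or 10000 HLF cells per well were mixed into the gel. All groups were fed serum-supplemented medium, and the labels name no drug or genetic change. Culture, days before harvest and number of cells seeded changed together, so their parts in a difference cannot be told apart. In such bulk RNA, fewer cells of a type and less RNA per cell cannot be told apart either. With 2 libraries a group, p-values rest on the spread within groups, pooled over all 6 groups and drawn toward a trend over genes.

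ABC proteins bind ATP at paired cassettes and use its hydrolysis to move substrates across membranes: drugs and conjugates out of the cell, lipids between membrane leaflets, fatty acids into peroxisomes, iron and heme compounds across mitochondrial membranes. Members of the E and F subfamilies have the cassettes but no membrane-spanning part, and work on the ribosome instead. In liver, several of these pumps sit in the canalicular or sinusoidal membrane of hepatocytes, and the efflux pumps ABCB1, ABCC1 and ABCG2 are known for lowering the drug content of tumour cells.

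Library totals ran from 12325877 to 16041906 counts. Of the 39 members, 30 passed a filter on low counts and 9 did not. Hepatocyte markers (8 genes, among them ALB, APOB and TTR) summed to between 3.64e+04 and 4.75e+04 CPM (counts scaled to library size) in the Huh7 libraries and to between 1.51 and 13.9 CPM in the HLF libraries, where APOB and TTR had no count. Mesenchymal markers (5 genes, among them VIM and CD44) went the other way, from 45.9 to 116 CPM in Huh7 and from 2499 to 3279 CPM in HLF. Leukocyte markers (4 genes) summed to at most 7.45 CPM and endothelial markers (4 genes) to at most 13.3 CPM, and 4 markers of stellate cells or fibroblasts, among them COL1A1, to at most 7.34 CPM in Huh7 and between 149 and 191 CPM in HLF. The share of counts on mitochondrial ribosomal RNA was 0.29% to 0.31% in the 2D libraries, 0.47% to 0.49% in Inject-Embed and 0.5% to 0.6% in Mix-Embed, so it moved with culture in both lines. Some marker sums moved with culture as well. In Huh7, mesenchymal markers were at 105 to 116 CPM in 2D, 45.9 to 49.4 in Inject-Embed and 63.9 to 65.5 in Mix-Embed, and stellate or fibroblast markers at 6.27 to 7.34, 1.96 to 3.03 and 5.06 to 7.10. Hepatocyte markers in Huh7 were at 4.55e+04 to 4.75e+04 CPM in 2D and 3.64e+04 to 3.78e+04 in Inject-Embed. In HLF, hepatocyte markers summed to 1.51 to 2.23 CPM in 2D, 7.46 to 7.71 in Inject-Embed and 12.1 to 13.9 in Mix-Embed. There AFP and SERPINA1 were called higher than in 2D in both 3D cultures. Mesenchymal markers in HLF summed to 2499 to 2510 CPM in 2D, 3275 to 3279 in Inject-Embed and 2950 to 2992 in Mix-Embed. The sum of stellate or fibroblast markers was highest in 2D, at 188 to 191 CPM. Single HLF markers moved in both directions against 2D (edgeR adjusted p under 0.05). TNC and CD44 were higher and AXL lower in both 3D cultures, and VIM and MSN were lower in Mix-Embed. LUM and DCN were higher and COL1A1 lower in both, and PDGFRB was lower in Inject-Embed. The part of these shifts and of the ribosomal RNA share in the culture differences below was not tested.

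ABCF1 and ABCE1, which work on the ribosome, were the most abundant members per transcript length in 2D of both lines. In Huh7 2D the highest means were 25.5 FPKM for ABCF1, 20.6 for ABCE1 and 20.5 for the peroxisomal ABCD3, followed by 14.3 for ABCB10, 14.1 for ABCF3, 10.6 for ABCC6 and 10.5 for ABCB1. In HLF 2D they were 47.2 FPKM for ABCF1, 40.3 for ABCE1, 22.4 for ABCC4, 19.7 for ABCC1, 17.0 for ABCD3, 13.1 for ABCB10 and 9.87 for ABCA3. The pumps behind these differed between the lines. ABCF2, the lowest of the 4 ribosome members in Huh7 2D, had 4.55 FPKM there. Of its exon bases 37.1% are shared with a same-strand readthrough gene without counts. Reads in that part may have gone uncounted, so this level may be too low. Together the members held 0.118% to 0.149% of all counts in each library.

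In the within-line comparisons, a member was called changed at an adjusted p under 0.05 from edgeR's quasi-likelihood test, with Benjamini-Hochberg adjustment over all 19342 genes tested. In Huh7, 11 members were higher and 5 lower in Inject-Embed than in 2D, 16 of 30 tested, beside 29.9% of all genes (13.2% higher, 16.7% lower). Between Mix-Embed and 2D 10 were higher and 6 lower, beside 21.7% of all genes (11.2% higher, 10.6% lower), and between the 3D cultures 9 were higher and 9 lower in Inject-Embed, beside 22.9% (9.55% higher, 13.4% lower). The shares of members called in Huh7 were 53.3%, 53.3% and 60%, above these backgrounds, though the filter and the members' abundance also bear on such shares and no test of the list was made. In HLF, Inject-Embed differed from 2D in 1 higher and 4 lower members, beside 17.9% of all genes (9.09% higher, 8.86% lower), a share of 16.7%. HLF Mix-Embed differed from 2D in 3 higher and 5 lower members, 26.7%, beside 29% of all genes (14.4% higher, 14.6% lower), and the HLF 3D cultures differed from each other in 2 higher and 4 lower members in Inject-Embed, 20%, beside 8.27% (3.56% higher, 4.71% lower). The first 2 HLF shares lie near their backgrounds. Scaled by library totals alone, the HLF splits became 2 higher and 3 lower in Inject-Embed and 4 higher and 4 lower in Mix-Embed against 2D. Within each line, both 3D cultures were compared with the same 2D libraries.

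Most changes were small. The median log2 fold change over the 30 tested members was 0.17, 0.07 and 0.08 in the 3 Huh7 comparisons and -0.05, 0.01 and -0.01 in the 3 HLF comparisons, beside medians between -0.03 and 0.00 over all genes. Among called members, a change of at least 2-fold was seen for 1 member in Huh7 Inject-Embed (ABCA2), 3 in Huh7 Mix-Embed (ABCG5, ABCA5 and ABCA3), 2 between the Huh7 3D cultures (ABCG5 and ABCC1) and 1 in each HLF 3D culture (ABCA12). Of the calls, 6 of 16, 8 of 16 and 12 of 18 in Huh7 and 2 of 5, 2 of 8 and 1 of 6 in HLF were made under every one of 12 other settings, which included leaving out each library used. Where left-out libraries are named below for a lost call, other settings may have lost it too.

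**Figure D1:**
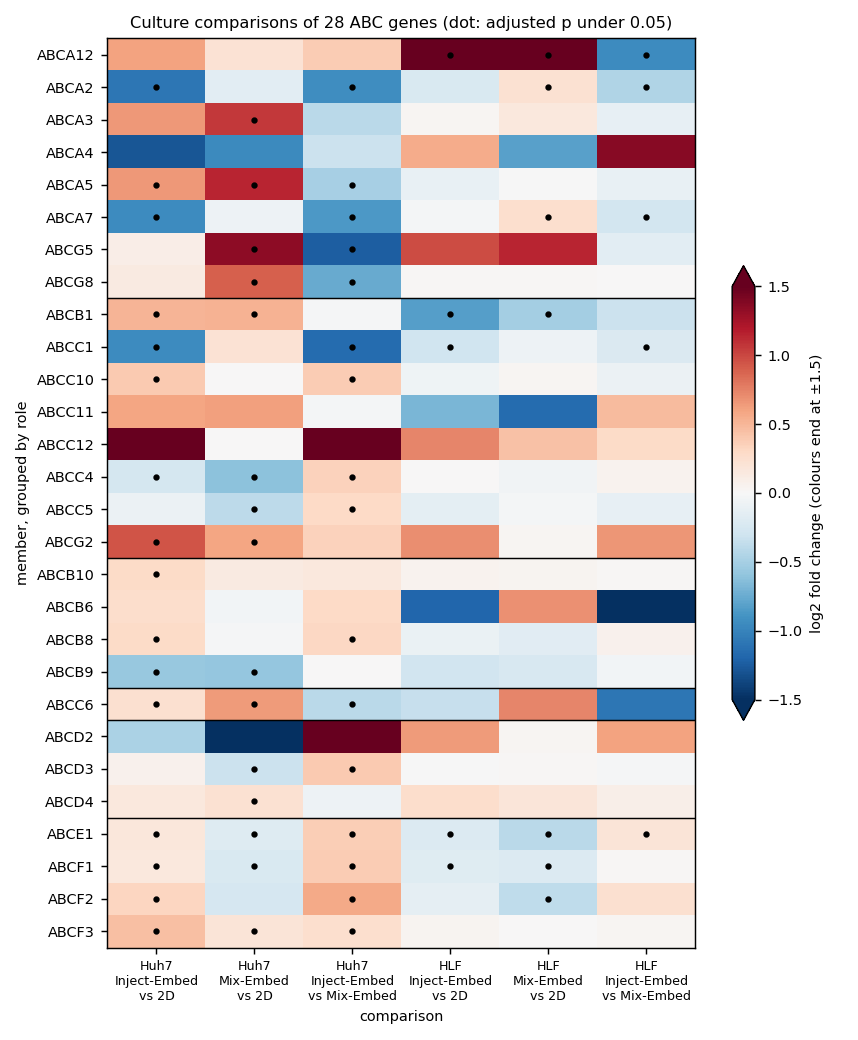
Heat map of log2 fold changes between cultures for 28 of the 30 tested members (rows, grouped by role) in the 6 within-line comparisons (columns), with a dot where the edgeR adjusted p was under 0.05. Dots are denser in the Huh7 columns (16, 15 and 16) than in the HLF columns (5, 7 and 5), and deep colours without a dot in the Huh7 columns include ABCC12 and ABCD2, which had few counts.

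Among the pumps for drugs and conjugates, ABCB1 and ABCG2 rose in both Huh7 3D cultures, ABCC4 fell in both, and ABCC1 fell in Inject-Embed. In HLF, ABCB1 fell in both 3D cultures. Of 8 tested members of this group, 3 were higher and 2 lower in Huh7 Inject-Embed than in 2D. In Huh7 Mix-Embed 2 were higher and 2 lower. None was higher and 2 were lower in HLF Inject-Embed, and none higher and 1 lower in HLF Mix-Embed. The shares called were 62.5%, 50%, 25% and 12.5% in this order, beside 29.9%, 21.7%, 17.9% and 29% of all genes.

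ABCB1 (ENSG00000085563, chromosome 7, 87503633 to 87713323, minus strand, GRCh38) encodes P-glycoprotein, the broad-range efflux pump. Its CPM in Huh7 were 68.1 and 62.1 in 2D, 94.0 and 91.7 in Inject-Embed and 94.7 and 92.6 in Mix-Embed. Every Huh7 3D library lay above both 2D libraries, and the 3D cultures overlapped. The rise was 1.43-fold in Inject-Embed (log2 0.51 ± 0.08 SE, edgeR adjusted p = 1.11e-06) and 1.44-fold in Mix-Embed (0.52 ± 0.08, edgeR adjusted p = 1.15e-06). In HLF the CPM were 7.62 and 7.56 in 2D, 4.93 and 3.64 in Inject-Embed and 5.60 and 5.11 in Mix-Embed. There both 3D cultures lay below 2D, 1.77-fold lower in Inject-Embed (log2 -0.83 ± 0.16, edgeR adjusted p = 0.000137) and 1.42-fold lower in Mix-Embed (-0.51 ± 0.15, edgeR adjusted p = 0.00991). The difference between the lines in this response was 1.34 ± 0.18 on the log2 scale for Inject-Embed (edgeR adjusted p = 9.86e-08) and 1.03 ± 0.17 for Mix-Embed (edgeR adjusted p = 1.03e-05). The HLF Mix-Embed fall lost its call without HLF 2D replicate 1 (log2 -0.50), HLF 2D replicate 2 (-0.50) or HLF Mix-Embed replicate 2 (-0.43), with adjusted p between 0.00894 and 0.12 over all alternatives.

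ABCG2 (ENSG00000118777, chromosome 4, 88090264 to 88231322, minus strand) encodes the breast cancer resistance protein, which exports drugs and urate. In Huh7 its CPM were 13.5 and 10.7 in 2D, 22.8 and 23.6 in Inject-Embed and 18.1 and 18.4 in Mix-Embed. The 3 cultures did not overlap, with 2D lowest and Inject-Embed highest. It rose 1.92-fold in Inject-Embed (log2 0.94 ± 0.17, edgeR adjusted p = 2.71e-05) and 1.51-fold in Mix-Embed (0.60 ± 0.17, edgeR adjusted p = 0.00983). Both calls were lost with limma on log2(FPKM + 0.1). The Mix-Embed call was lost without Huh7 2D replicate 2 (0.44) or Huh7 Mix-Embed replicate 2 (0.58) and with DESeq2, with adjusted p from 0.0031 to 0.352 over the alternatives. In HLF the gene was near the detection limit, at 1.24 and 0.88 CPM in 2D, 1.30 and 2.13 in Inject-Embed and 1.78 and 0.48 in Mix-Embed, which overlapped both other cultures, and no culture difference was called.

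The upstream windows of these pumps are shown because both genes rose in both Huh7 3D cultures. Each is 250 bases upstream of a RefSeq transcription start (GRCh38.p14), and capitals mark the E-box letters CACGTG, the CCAAT box and the GC box letters GGGCGG on either strand. The ABCB1 window lies at chr7:87600885-87601134 on the minus strand, inside the annotated span of the gene, and the ABCG2 window at chr4:88158860-88159109, also on the minus strand and inside the span. RefSeq lists further starts for both genes.
ABCB1: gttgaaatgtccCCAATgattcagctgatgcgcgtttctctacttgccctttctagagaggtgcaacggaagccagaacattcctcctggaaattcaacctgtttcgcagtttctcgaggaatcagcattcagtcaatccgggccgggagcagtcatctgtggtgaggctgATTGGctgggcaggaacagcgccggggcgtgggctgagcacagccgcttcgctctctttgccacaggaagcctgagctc
ABCG2: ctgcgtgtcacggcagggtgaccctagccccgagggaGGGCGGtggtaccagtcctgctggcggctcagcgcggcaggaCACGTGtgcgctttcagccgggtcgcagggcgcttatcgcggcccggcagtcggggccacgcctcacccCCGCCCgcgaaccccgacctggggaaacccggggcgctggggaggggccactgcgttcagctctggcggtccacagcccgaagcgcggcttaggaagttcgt
The ABCB1 window holds CCAAT letters at positions -238 and -79 from the start and no E-box or GC box, while the ABCG2 window holds an E-box at -171 and GC boxes at -213 and -102. Over all 35114 RefSeq windows of this length, 6.35% hold the E-box letters, 32% the CCAAT letters and 42.6% the GC box letters, so the last 2 are common and the matches are a description only. Another pattern, TGACNNNGC, the core of antioxidant response elements, was also searched and is not in either window, though 10.9% of all windows hold it.

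ABCC1 (ENSG00000103222, chromosome 16, 15949577 to 16143074, plus strand) encodes MRP1, which exports glutathione conjugates. Its CPM in Huh7 were 15.6 and 18.9 in 2D, 9.31 and 8.59 in Inject-Embed and 21.0 and 18.9 in Mix-Embed. Inject-Embed lay below both other cultures, and Mix-Embed overlapped 2D. It was 1.92-fold lower in Inject-Embed than in 2D (log2 -0.94 ± 0.12, edgeR adjusted p = 3.62e-08) and 2.23-fold lower than in Mix-Embed (-1.16 ± 0.12, edgeR adjusted p = 2.92e-10). HLF held far more ABCC1, with 141 and 147 CPM in 2D, 114 and 119 in Inject-Embed and 138 and 135 in Mix-Embed. There Inject-Embed was also lowest, 1.23-fold below 2D (log2 -0.30 ± 0.06, edgeR adjusted p = 0.000467) and 1.17-fold below Mix-Embed (-0.22 ± 0.06, edgeR adjusted p = 0.0221). Both HLF calls were lost with limma on log2(FPKM + 1) and on log2(FPKM + 0.1), and that against Mix-Embed also with DESeq2. The fall was larger in Huh7, with a difference (Huh7 minus HLF) of -0.65 ± 0.14 on the log2 scale against 2D (edgeR adjusted p = 0.000342) and -0.94 ± 0.14 against Mix-Embed (edgeR adjusted p = 2.35e-06). The HLF difference between the 3D cultures lost its call without any 1 of the 4 libraries compared (HLF Inject-Embed replicates 1 and 2, HLF Mix-Embed replicates 1 and 2), with log2 values of -0.20, -0.26, -0.22 and -0.24, and adjusted p from 0.00583 to 0.224 over the alternatives.

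ABCC4 (MRP4), which exports cyclic nucleotides and bile acids across the sinusoidal membrane, had Huh7 CPM of 80.6 and 73.6 in 2D, 62.8 and 65.4 in Inject-Embed and 52.3 and 48.1 in Mix-Embed. The 3 groups did not overlap, in the order 2D, Inject-Embed, Mix-Embed. It fell 1.53-fold in Mix-Embed (log2 -0.62 ± 0.07, edgeR adjusted p = 7.48e-09) and 1.20-fold in Inject-Embed (-0.27 ± 0.07, edgeR adjusted p = 0.00296), and the 3D cultures differed by 0.35 ± 0.08 (edgeR adjusted p = 0.000411). With both limma fits the Inject-Embed fall was not called. The Inject-Embed fall lost its call without Huh7 2D replicate 1 (-0.20) or Huh7 Inject-Embed replicate 1 (-0.24), with adjusted p from 0.000508 to 0.07 over the alternatives. HLF held 175 to 199 CPM in all 6 libraries and no culture call. The Mix-Embed response differed between the lines by -0.57 ± 0.09 (edgeR adjusted p = 8.33e-06).

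ABCC5 (MRP5), an exporter of nucleotide analogs, had Huh7 CPM of 63.7 and 55.9 in 2D, 57.2 and 55.3 in Inject-Embed and 47.7 and 43.5 in Mix-Embed. Mix-Embed lay below the other cultures, which overlapped. The fall in Mix-Embed was 1.31-fold against 2D (log2 -0.39 ± 0.08, edgeR adjusted p = 0.000282) and 1.23-fold against Inject-Embed (0.30 ± 0.08 for Inject-Embed over Mix-Embed, edgeR adjusted p = 0.00557). The latter call was lost without Huh7 Inject-Embed replicate 1 (0.28) or Huh7 Mix-Embed replicate 2 (0.25), with adjusted p from 0.0012 to 0.104. ABCC10 (MRP7), a relative that exports taxanes and glucuronides, had Huh7 CPM of 29.0 and 32.5 in 2D, 43.0 and 37.2 in Inject-Embed and 30.5 and 31.2 in Mix-Embed. Only the Inject-Embed libraries stood above the other 4, 1.31-fold above 2D (log2 0.39 ± 0.10, edgeR adjusted p = 0.00184) and 1.30-fold above Mix-Embed (0.38 ± 0.10, edgeR adjusted p = 0.00331). Without Huh7 Inject-Embed replicate 1 both ABCC10 calls were lost (0.28 and 0.27), and adjusted p ran from 0.000724 to 0.135 over the alternatives of both. ABCC11 (MRP8) had at most 2.27 CPM and ABCC12 at most 0.71 CPM in any library, and neither had a culture call. LONP2, on the opposite strand, shares 289 exon bases with ABCC11 and held 16475 counts, and the strand setting of the counting is not given in the sources used here.

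**Figure D2:**
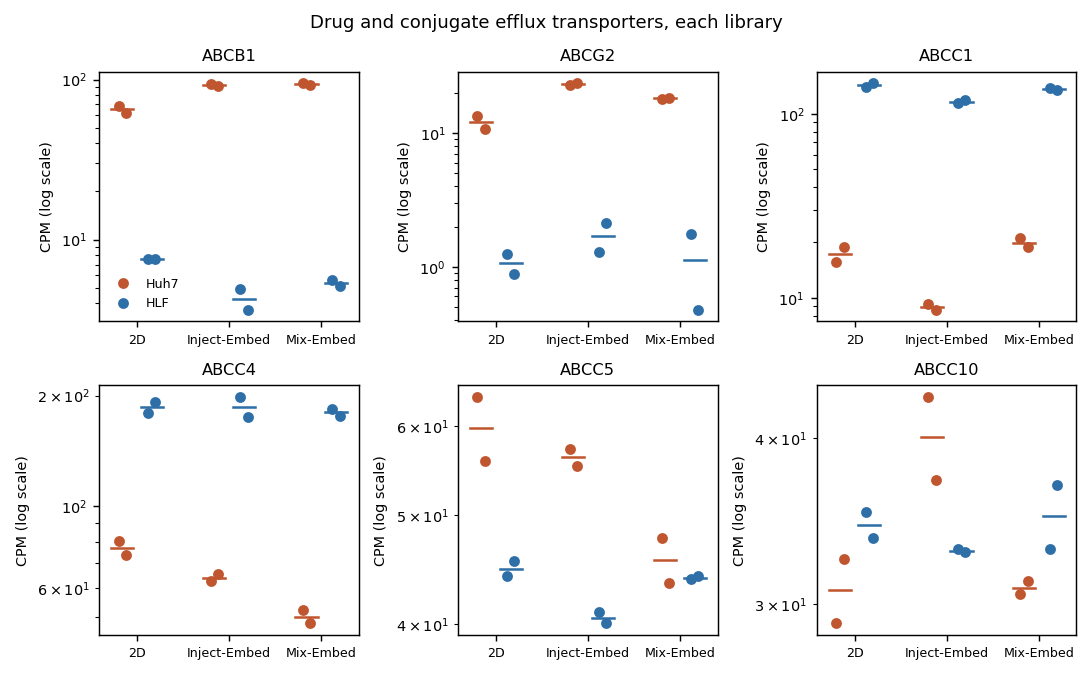
CPM (log scale) of 6 efflux pumps in each library, Huh7 in orange and HLF in blue, by culture, with a line at each group's mean of 2 libraries. ABCB1 and ABCG2 stand higher in Huh7 in every culture and ABCC1 and ABCC4 higher in HLF, and the Huh7 Inject-Embed points of ABCC1 are the lowest of that gene at 9.31 and 8.59 CPM.

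Among lipid and sterol transporters, ABCA2 and ABCA7 fell in Huh7 Inject-Embed and had no call in Mix-Embed against 2D, and ABCA5, ABCG5 and ABCG8 were highest in Huh7 Mix-Embed. In HLF, ABCA12 rose in both 3D cultures. Of 8 tested members of this group, 1 was higher and 2 lower in Huh7 Inject-Embed than in 2D, 4 higher and none lower in Huh7 Mix-Embed, 1 higher in HLF Inject-Embed and 3 higher in HLF Mix-Embed. Between the Huh7 3D cultures none was higher and 5 were lower in Inject-Embed. The shares called were 37.5%, 50%, 12.5%, 37.5% and 62.5% in this order, beside 29.9%, 21.7%, 17.9%, 29% and 22.9% of all genes.

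ABCA2 (ENSG00000107331, chromosome 9, 137007227 to 137028922, minus strand), a transporter of late endosomes and lysosomes involved in sphingolipid and cholesterol handling, had Huh7 CPM of 100 and 105 in 2D, 48.4 and 47.9 in Inject-Embed and 90.8 and 93.0 in Mix-Embed. The Inject-Embed libraries stood far below the other 4. The fall was 2.13-fold against 2D (log2 -1.09 ± 0.07, edgeR adjusted p = 3.23e-16) and 1.91-fold against Mix-Embed (-0.93 ± 0.07, edgeR adjusted p = 1.33e-13), and both calls were made under all 12 alternatives. In HLF the CPM were 34.2 and 32.6 in 2D, 29.0 and 28.2 in Inject-Embed and 37.4 and 40.4 in Mix-Embed. Inject-Embed was again the lowest culture, 1.36-fold below Mix-Embed (-0.45 ± 0.08, edgeR adjusted p = 0.000148). The rise in HLF Mix-Embed against 2D was 1.17-fold (0.22 ± 0.08, edgeR adjusted p = 0.0304) and lost its call without HLF 2D replicate 1 (0.26), HLF 2D replicate 2 (0.20) or HLF Mix-Embed replicate 2 (0.17), with adjusted p from 0.00561 to 0.244. The responses to Inject-Embed against 2D differed between the lines by -0.87 ± 0.11 on the log2 scale (edgeR adjusted p = 3.87e-08).

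ABCA7 (ENSG00000064687, chromosome 19, 1040101 to 1065572, plus strand), which moves phospholipids and takes part in phagocytosis, followed a like pattern in Huh7. Its CPM were 45.1 and 50.4 in 2D, 27.1 and 22.5 in Inject-Embed and 44.5 and 45.8 in Mix-Embed. Again the Inject-Embed libraries stood below the other 4, while 2D and Mix-Embed overlapped. The fall was 1.92-fold against 2D (log2 -0.94 ± 0.10, edgeR adjusted p = 1.61e-10) and 1.81-fold against Mix-Embed (-0.86 ± 0.10, edgeR adjusted p = 3.6e-09). In HLF the CPM were 38.3 and 38.9 in 2D, 36.4 and 39.4 in Inject-Embed and 43.8 and 48.0 in Mix-Embed. HLF Mix-Embed stood 1.19-fold above 2D (0.25 ± 0.09, edgeR adjusted p = 0.0288) and 1.21-fold above Inject-Embed (-0.28 ± 0.09 for Inject-Embed over Mix-Embed, edgeR adjusted p = 0.0438). Against 2D the HLF call was lost without HLF 2D replicate 1 (0.24), HLF 2D replicate 2 (0.28) or HLF Mix-Embed replicate 2 (0.19), and against Inject-Embed without HLF Inject-Embed replicate 1 (-0.23), HLF Inject-Embed replicate 2 (-0.34) or HLF Mix-Embed replicate 2 (-0.21), with adjusted p up to 0.257 and 0.382. The Huh7 and HLF responses to Inject-Embed against 2D differed by -0.91 ± 0.13 (edgeR adjusted p = 6.23e-07).

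ABCA5 (ENSG00000154265), a late endosomal and lysosomal transporter linked to cholesterol, is the last of a row of 5 minus-strand members on chromosome 17. In order of position these are ABCA8 (68867292 to 68955392), ABCA9 (68974488 to 69061064), ABCA6 (69078702 to 69141888), ABCA10 (69147214 to 69244846) and ABCA5 (69244311 to 69327244). ABCA5 alone of the 5 passed the filter on low counts: its neighbours had at most 9 counts in any library. In Huh7 its CPM were 16.7 and 15.3 in 2D, 22.6 and 27.7 in Inject-Embed and 32.4 and 38.7 in Mix-Embed. The 3 cultures did not overlap, in the order 2D, Inject-Embed, Mix-Embed. It rose 2.22-fold in Mix-Embed (log2 1.15 ± 0.13, edgeR adjusted p = 3.43e-09) and 1.57-fold in Inject-Embed (0.65 ± 0.14, edgeR adjusted p = 0.000193). The difference between the 3D cultures, 1.42-fold (-0.50 ± 0.13, edgeR adjusted p = 0.00248), was lost without Huh7 Inject-Embed replicate 1 (-0.35) or Huh7 Mix-Embed replicate 2 (-0.36), with adjusted p from 0.000671 to 0.121. HLF held 9.38 to 12 CPM in all libraries, and the rise differed between the lines by 0.76 ± 0.21 for Inject-Embed (edgeR adjusted p = 0.00416) and 1.15 ± 0.20 for Mix-Embed (edgeR adjusted p = 2.14e-05).

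ABCG5 and ABCG8 encode the subunits of the sterol exporter that sends cholesterol and plant sterols into bile. In Huh7, ABCG5 had 2.20 and 3.50 CPM in 2D, 2.88 and 3.23 in Inject-Embed and 7.10 and 7.32 in Mix-Embed. ABCG8 had 11.3 and 9.69 CPM in 2D, 11.8 and 11.2 in Inject-Embed and 19.4 and 19.6 in Mix-Embed. For both genes the Mix-Embed libraries stood above the other 4, which overlapped. Against 2D, ABCG5 rose 2.53-fold (log2 1.34 ± 0.30, edgeR adjusted p = 0.000807) and ABCG8 1.86-fold (0.89 ± 0.17, edgeR adjusted p = 6.7e-05) in Mix-Embed. Inject-Embed was 2.36-fold below Mix-Embed for ABCG5 (-1.24 ± 0.31, edgeR adjusted p = 0.00206) and 1.69-fold below for ABCG8 (-0.76 ± 0.17, edgeR adjusted p = 0.000625). All 4 calls were made under every alternative. HLF held at most 0.39 CPM of ABCG5 and at most 1 count of ABCG8 in a library.

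The windows upstream of ABCG5 and ABCG8 are shown because the genes sit head to head and moved together. Their RefSeq starts (GRCh38.p14) lie at positions 43838839 (minus strand) and 43838971 (plus strand) of chromosome 2, with 131 bases between them. The ABCG5 window is chr2:43838840-43839089 and the ABCG8 window chr2:43838721-43838970, and capitals mark the 131 bases that both windows contain, read from opposite strands.
ABCG5: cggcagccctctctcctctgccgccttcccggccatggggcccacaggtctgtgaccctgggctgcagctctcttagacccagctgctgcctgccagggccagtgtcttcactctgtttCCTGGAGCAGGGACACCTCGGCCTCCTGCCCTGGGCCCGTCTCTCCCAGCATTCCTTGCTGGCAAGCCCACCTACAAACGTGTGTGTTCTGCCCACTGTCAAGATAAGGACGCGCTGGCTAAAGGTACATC
ABCG8: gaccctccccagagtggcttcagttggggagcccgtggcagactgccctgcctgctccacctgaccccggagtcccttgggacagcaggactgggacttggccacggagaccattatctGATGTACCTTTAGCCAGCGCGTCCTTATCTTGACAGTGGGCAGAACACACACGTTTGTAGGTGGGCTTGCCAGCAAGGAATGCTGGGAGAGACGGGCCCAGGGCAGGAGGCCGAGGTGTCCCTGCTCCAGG
Neither window holds the E-box, CCAAT box or GC box letters given above. The annotated exons of the genes share 137 bases on opposite strands (GENCODE v44), which is 3.68% of the exon bases of ABCG5 and 1.35% of those of ABCG8. A small share of reads could thus have gone uncounted or to the wrong gene.

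ABCA12, which loads glucosylceramide into the lamellar granules of keratinocytes, had the largest rise among the members called in HLF. Its HLF CPM were 0.93 and 0.95 in 2D, 3.18 and 3.89 in Inject-Embed and 7.17 and 6.41 in Mix-Embed. The 3 groups were ordered without overlap, from a low base. It rose 3.75-fold in Inject-Embed (log2 1.91 ± 0.37, edgeR adjusted p = 0.000111) and 7.18-fold in Mix-Embed (2.85 ± 0.35, edgeR adjusted p = 7.89e-09). The difference between the HLF 3D cultures, 1.92-fold (-0.94 ± 0.29, edgeR adjusted p = 0.0323), lost its call without any 1 of the 4 libraries (HLF Inject-Embed replicate 1, -0.81, and 2, -1.10, HLF Mix-Embed replicate 1, -0.87, and 2, -1.02), with adjusted p from 0.0048 to 0.246. In Huh7 it stayed between 0.38 and 1.19 CPM, and the Mix-Embed response differed between the lines by -2.62 ± 0.70 (edgeR adjusted p = 0.00499), a call lost without Huh7 2D replicate 2 (-2.30) with adjusted p from 0.000541 to 0.0712.

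ABCA3, which fills the lamellar bodies of lung alveolar cells with surfactant lipid, was far higher in HLF, as the line comparison shows. In Huh7 it had 0.80 and 0.67 CPM in 2D and 1.46 and 1.63 in Mix-Embed. That 2.08-fold rise (log2 1.06 ± 0.35, edgeR adjusted p = 0.0256) lost its call without any 1 of the 4 libraries (Huh7 2D replicate 1, 1.19, and 2, 0.94, Huh7 Mix-Embed replicate 1, 1.14, and 2, 0.98), with adjusted p from 0.0129 to 0.286. ABCA4, the retinoid transporter of photoreceptors, had at most 29 counts in a library and no culture call.

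**Figure D3:**
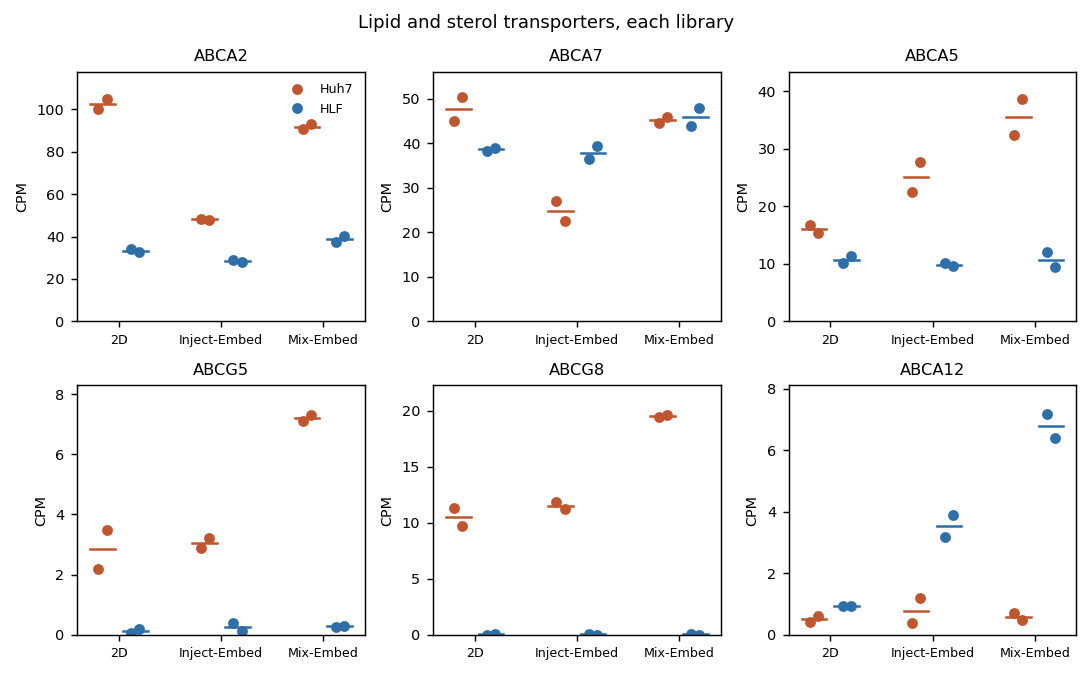
CPM (linear scale from 0) of 6 lipid and sterol transporters in each library, Huh7 in orange and HLF in blue, by culture, with a line at each group's mean of 2 libraries. The Huh7 points of ABCA2 and ABCA7 are low in Inject-Embed (48.4 and 47.9, 27.1 and 22.5 CPM), those of ABCA5, ABCG5 and ABCG8 high in Mix-Embed, and the HLF points of ABCA12 rise from under 1 CPM to 7.17 and 6.41 CPM.

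Among the members of mitochondria, lysosomes and the heme pathway, changes between cultures were small. ABCB10 and ABCB8, both of the inner mitochondrial membrane and linked to heme and iron handling, rose 1.22-fold each in Huh7 Inject-Embed. The CPM of ABCB10 were 66.0 and 64.5 in Huh7 2D and 74.7 and 85.3 in Inject-Embed (log2 0.29 ± 0.08, edgeR adjusted p = 0.00246), and those of ABCB8 were 34.5 and 35.2 against 45.0 and 39.9 (0.28 ± 0.09, edgeR adjusted p = 0.0149). Neither pair overlapped, but the ABCB10 call was lost without Huh7 Inject-Embed replicate 2 (0.20) and the ABCB8 call without Huh7 2D replicate 1 (0.27) or Huh7 Inject-Embed replicate 1 (0.20), with adjusted p up to 0.112 and 0.251. ABCB8 was also 1.24-fold higher in Huh7 Inject-Embed than in Mix-Embed (0.31 ± 0.09, edgeR adjusted p = 0.0128), a call lost without Huh7 Inject-Embed replicate 1 (0.22), Huh7 Mix-Embed replicate 1 (0.32) or 2 (0.30), with adjusted p up to 0.23. ABCB9, a lysosomal peptide transporter, had Huh7 CPM of 11.2 and 10.2 in 2D, 6.89 and 7.48 in Inject-Embed and 7.45 and 6.85 in Mix-Embed. Both 3D cultures stood 1.49-fold below 2D (-0.57 ± 0.17, edgeR adjusted p = 0.00673, and -0.58 ± 0.16, edgeR adjusted p = 0.00804). With both limma fits these 2 calls were lost. The Inject-Embed call was lost without Huh7 2D replicate 1 (-0.50) or Huh7 Inject-Embed replicate 1 (-0.51) and the Mix-Embed call without Huh7 2D replicate 1 (-0.51) or Huh7 Mix-Embed replicate 2 (-0.52), with adjusted p up to 0.0813 and 0.0855. ABCB9 exons overlap those of OGFOD2 and ARL6IP4 on the opposite strand, so some of its reads may be theirs. ABCB6, a porphyrin transporter, had 7.24 to 11.1 CPM in Huh7 and at most 0.96 in HLF with no culture call. Of its exon bases 54.6% are shared with a same-strand readthrough gene that held 64 counts over all libraries. Reads in that part may have gone uncounted, so the ABCB6 levels may be too low.

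ABCC6 (ENSG00000091262, chromosome 16, 16148928 to 16223522, minus strand) is the hepatocyte transporter whose activity releases ATP and so the calcification inhibitor pyrophosphate into blood. In Huh7 its CPM were 83.6 and 88.0 in 2D, 106 and 96.3 in Inject-Embed and 134 and 133 in Mix-Embed. The 3 cultures did not overlap, with 2D lowest and Mix-Embed highest. It rose 1.55-fold in Mix-Embed (log2 0.64 ± 0.07, edgeR adjusted p = 6.37e-09) and 1.18-fold in Inject-Embed (0.24 ± 0.08, edgeR adjusted p = 0.014), and Inject-Embed was 1.32-fold below Mix-Embed (-0.40 ± 0.07, edgeR adjusted p = 5.31e-05). The Inject-Embed rise lost its call without Huh7 2D replicate 1 (0.20) or Huh7 Inject-Embed replicate 1 (0.17), with adjusted p from 0.0047 to 0.413, and all 3 calls were lost with limma on log2(FPKM + 0.1). HLF held 0.25 to 1.09 CPM. The near-identical pseudogenes ABCC6P1 and ABCC6P2 held 4020 and 607 counts over the 12 libraries beside 8777 for ABCC6, so reads may have been split between them and the ABCC6 values are uncertain. The channel regulators ABCC8 and ABCC9, which form ATP-sensitive potassium channels with KCNJ11 and KCNJ8, were under the filter, ABCC8 with 1 count in all 12 libraries. ABCC9 had 20 counts in HLF Mix-Embed against 3 in HLF 2D, a ratio of 6.78 (95% counting interval 2.01 to 35.6), and 14 counts in HLF Inject-Embed, a ratio of 4.76 (1.33 to 25.9). Such intervals cover counting error only.

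Of the peroxisomal transporters, ABCD3 fell in Huh7 Mix-Embed. ABCD3 (PMP70, ENSG00000117528, chromosome 1, 94418455 to 94518666, plus strand), which imports branched-chain and dicarboxylic acids and bile acid precursors, had Huh7 CPM of 169 and 164 in 2D, 174 and 174 in Inject-Embed and 130 and 135 in Mix-Embed. Mix-Embed was the low culture, with no overlap, 1.25-fold below 2D (-0.33 ± 0.05, edgeR adjusted p = 7.92e-06) and 1.31-fold below Inject-Embed (0.39 ± 0.05 for Inject-Embed over Mix-Embed, edgeR adjusted p = 2.76e-07). Both calls were made under every alternative. HLF had no call for ABCD3, at 123 to 126 CPM. The Mix-Embed response against 2D differed between the lines by -0.34 ± 0.08 (edgeR adjusted p = 0.000729).

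ABCD4, which passes cobalamin out of lysosomes, had Huh7 CPM of 46.5 and 50.0 in 2D, 54.1 and 53.1 in Inject-Embed and 56.7 and 56.7 in Mix-Embed. The 1.18-fold difference of Mix-Embed from 2D (log2 0.23 ± 0.08, edgeR adjusted p = 0.0395) was lost under 9 of 12 alternatives, among them leaving out Huh7 2D replicate 1 (0.18), Huh7 Mix-Embed replicate 1 (0.24) or 2 (0.23), with adjusted p from 0.0457 to 0.289. ABCD2, another peroxisomal member, had at most 17 counts in a library.

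Among the ribosome members, all 4 were higher in Huh7 Inject-Embed than in Mix-Embed, and these differences were small. In this comparison 22.9% of all genes were called, 9.55% higher and 13.4% lower. ABCE1 splits ribosomes for recycling, ABCF1 takes part in translation initiation, and ABCF2 and ABCF3 are soluble relatives, ABCF3 being the human relative of yeast GCN20. The Huh7 CPM of ABCE1 were 146 and 131 in 2D, 149 and 164 in Inject-Embed and 123 and 119 in Mix-Embed. Those of ABCF1 were 116 and 132 in 2D, 142 and 134 in Inject-Embed and 106 and 105 in Mix-Embed. For both genes Mix-Embed was lowest and Inject-Embed highest with no overlap, though the nearest 2D and Inject-Embed libraries differed by less than the 2D pair did.

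Between the Huh7 3D cultures, Inject-Embed over Mix-Embed was 1.29-fold for ABCE1 (log2 0.37 ± 0.06, edgeR adjusted p = 8.42e-06), 1.30-fold for ABCF1 (0.38 ± 0.06, edgeR adjusted p = 2.99e-06), 1.49-fold for ABCF2 (0.57 ± 0.12, edgeR adjusted p = 0.000338) and 1.19-fold for ABCF3 (0.26 ± 0.07, edgeR adjusted p = 0.00661). The first 3 were called under every alternative, and ABCF3 lost its call without Huh7 Inject-Embed replicate 1 (0.16) or Huh7 Mix-Embed replicate 1 (0.19), with adjusted p up to 0.243. ABCF2 had Huh7 CPM of 20.3 and 20.4 in 2D, 23.9 and 27.0 in Inject-Embed and 17.3 and 16.9 in Mix-Embed. ABCF3 had 77.2 and 79.6 in 2D, 114 and 100 in Inject-Embed and 86.0 and 93.6 in Mix-Embed. Unlike the other 3, ABCF3 was lowest in 2D, and its rise in Inject-Embed against 2D was 1.36-fold (0.45 ± 0.07, edgeR adjusted p = 2.56e-06) and called under every alternative.

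The other calls against 2D in Huh7 were each lost under at least 1 alternative. In Inject-Embed ABCE1 rose 1.13-fold (log2 0.17 ± 0.06, edgeR adjusted p = 0.0249), ABCF1 1.12-fold (0.16 ± 0.06, edgeR adjusted p = 0.0349) and ABCF2 1.25-fold (0.32 ± 0.12, edgeR adjusted p = 0.0331). The ABCE1 call was lost without Huh7 2D replicate 2 (0.10) or Huh7 Inject-Embed replicate 2 (0.11), the ABCF1 call without Huh7 2D replicate 1 (0.07) or Huh7 Inject-Embed replicate 1 (0.12), and the ABCF2 call without Huh7 2D replicate 1 (0.32) or 2 (0.33) or Huh7 Inject-Embed replicate 2 (0.24), with adjusted p up to 0.321, 0.512 and 0.268. In Mix-Embed ABCE1 fell 1.14-fold (-0.19 ± 0.06, edgeR adjusted p = 0.016), ABCF1 fell 1.17-fold (-0.22 ± 0.06, edgeR adjusted p = 0.00458) and ABCF3 rose 1.14-fold (0.19 ± 0.07, edgeR adjusted p = 0.0478). These were lost without Huh7 2D replicate 1 (-0.12) or Huh7 Mix-Embed replicate 2 (-0.17) for ABCE1, without Huh7 2D replicate 2 (-0.13) for ABCF1, and under 11 of 12 alternatives for ABCF3, among them leaving out Huh7 2D replicate 1 (0.17) or 2 (0.22) or Huh7 Mix-Embed replicate 2 (0.13), with adjusted p up to 0.299, 0.199 and 0.42.

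In HLF, ABCE1, ABCF1 and ABCF2 were highest in 2D. ABCE1 had 244 and 243 CPM in 2D, 211 and 213 in Inject-Embed and 194 and 175 in Mix-Embed, with no overlap between the groups. It fell 1.32-fold in Mix-Embed (log2 -0.40 ± 0.06, edgeR adjusted p = 2.1e-07), called under every alternative, and 1.15-fold in Inject-Embed (-0.20 ± 0.06, edgeR adjusted p = 0.00758). ABCF1 had 210 and 201 CPM in 2D, 181 and 180 in Inject-Embed and 175 and 181 in Mix-Embed, a fall of 1.14-fold (-0.19 ± 0.06, edgeR adjusted p = 0.0131) and 1.15-fold (-0.20 ± 0.06, edgeR adjusted p = 0.00364). ABCF2 had 21.2 and 20.7 CPM in 2D and 16.6 and 15.5 in Mix-Embed, a fall of 1.30-fold (-0.38 ± 0.12, edgeR adjusted p = 0.0113), and ABCF3 stayed between 36.7 and 41.0 CPM. HLF Inject-Embed was 1.15-fold above Mix-Embed for ABCE1 (0.20 ± 0.06, edgeR adjusted p = 0.0197). ABCE1 and ABCF1 together thus went up in Huh7 Inject-Embed and down in HLF Inject-Embed, with a difference between the lines of 0.37 ± 0.08 for ABCE1 (edgeR adjusted p = 0.000437) and 0.35 ± 0.08 for ABCF1 (edgeR adjusted p = 0.000928), both called under every alternative.

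Several of these HLF calls were lost without a single library. Those of ABCE1 in Inject-Embed and between the 3D cultures, and of ABCF1 in both 3D cultures, were also lost with both limma fits. The ABCE1 fall in Inject-Embed was lost without any 1 of HLF 2D replicates 1 and 2 and HLF Inject-Embed replicates 1 and 2 (-0.20, -0.20, -0.19 and -0.20). The ABCF1 fall in Inject-Embed was lost without HLF 2D replicate 1 (-0.16) or HLF Inject-Embed replicate 1 (-0.18) or 2 (-0.18), and that in Mix-Embed without HLF 2D replicate 1 (-0.17) or HLF Mix-Embed replicate 1 (-0.16). ABCF2 in Mix-Embed was lost without HLF 2D replicate 1 (-0.37) or 2 (-0.39) or HLF Mix-Embed replicate 2 (-0.33), and the ABCE1 difference between the 3D cultures without HLF Inject-Embed replicate 1 (0.20) or 2 (0.19) or HLF Mix-Embed replicate 2 (0.12). Adjusted p over the alternatives reached 0.191, 0.166, 0.112, 0.122 and 0.426 in this order. Exons of ABCE1 overlap those of OTUD4 and ANAPC10 on the opposite strand over 276 and 132 bases. The 37.1% of ABCF2 exon bases shared with a same-strand readthrough gene without counts may hold uncounted reads.

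The upstream windows of the ribosome members are shown because they moved together between the Huh7 3D cultures. They are 250 bases long (RefSeq, GRCh38.p14), at chr4:145098061-145098310 for ABCE1 (plus strand), chr6:30571192-30571441 for ABCF1 (plus), chr7:151227206-151227455 for ABCF2 (minus) and chr3:184185949-184186198 for ABCF3 (plus), with the same letters in capitals as above.
ABCE1: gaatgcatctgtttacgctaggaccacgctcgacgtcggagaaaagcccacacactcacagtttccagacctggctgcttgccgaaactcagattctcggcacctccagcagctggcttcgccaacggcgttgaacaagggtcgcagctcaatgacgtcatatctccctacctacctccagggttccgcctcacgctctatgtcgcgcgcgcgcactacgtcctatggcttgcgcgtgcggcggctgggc
ABCF1: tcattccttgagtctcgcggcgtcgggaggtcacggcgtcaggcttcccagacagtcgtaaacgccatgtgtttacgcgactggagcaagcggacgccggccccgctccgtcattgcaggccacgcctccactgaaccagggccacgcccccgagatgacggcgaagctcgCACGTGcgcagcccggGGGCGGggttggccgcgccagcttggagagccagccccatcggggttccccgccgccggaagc
ABCF2: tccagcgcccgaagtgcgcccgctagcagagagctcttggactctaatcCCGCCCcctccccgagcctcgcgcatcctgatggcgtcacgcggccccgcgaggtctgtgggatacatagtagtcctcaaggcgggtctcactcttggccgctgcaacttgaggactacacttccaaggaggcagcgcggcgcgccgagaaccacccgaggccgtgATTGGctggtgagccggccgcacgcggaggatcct
ABCF3: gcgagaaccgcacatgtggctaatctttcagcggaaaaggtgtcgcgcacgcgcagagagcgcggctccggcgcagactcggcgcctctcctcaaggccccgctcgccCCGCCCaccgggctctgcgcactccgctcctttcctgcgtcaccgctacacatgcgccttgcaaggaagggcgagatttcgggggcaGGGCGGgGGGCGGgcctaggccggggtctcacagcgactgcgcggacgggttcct
No set of letters was shared by the 4 windows. ABCE1 holds none of the 3, ABCF1 an E-box at -79 and a GC box at -63, ABCF2 a GC box at -201 and a CCAAT box at -35, and ABCF3 GC boxes at -142, -55 and -48. Over all member windows, 8 of 50 hold the E-box, 11 the CCAAT box, 24 the GC box letters and 9 the pattern TGACNNNGC (ABCF1, at -146, among those shown, not in capitals), beside the shares of 6.35%, 32%, 42.6% and 10.9% over all windows. The 50 windows belong to 32 of the 39 members, and windows of 1 gene can overlap.

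**Figure D4:**
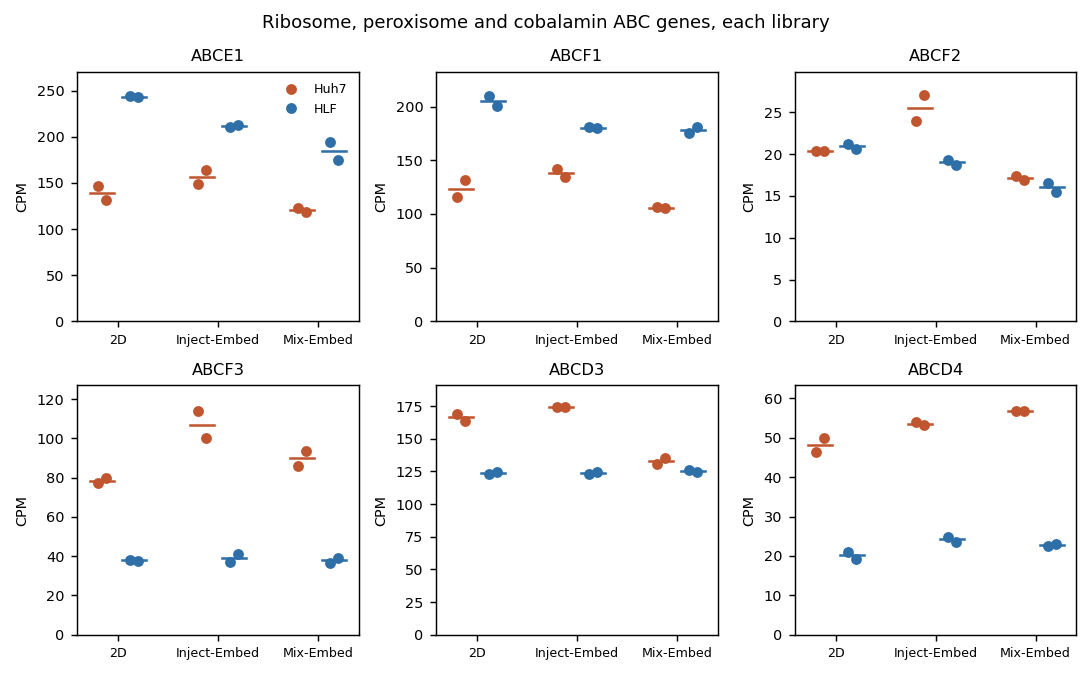
CPM (linear scale from 0) of the 4 ribosome members and of ABCD3 and ABCD4 in each library, Huh7 in orange and HLF in blue, by culture, with a line at each group's mean of 2 libraries. In Huh7 the Inject-Embed points of ABCE1, ABCF1, ABCF2 and ABCF3 lie above the Mix-Embed points, and ABCD3 is lowest in Mix-Embed (130 and 135 CPM).

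Between the lines the members differed far more than between cultures. In 2D, 15 of the 30 tested members were higher and 10 lower in Huh7 than in HLF, 83.3%, beside 77.2% of all genes (38.1% higher, 39.2% lower). In Inject-Embed 17 were higher and 12 lower, 96.7%, beside 77.1% (37.6% higher, 39.5% lower), and in Mix-Embed 14 were higher and 11 lower, 83.3%, beside 76.9% (37.9% higher, 39.1% lower). These shares are close to the background except in Inject-Embed, and a member could pass the filter through 1 line alone, so they are given as a description. With library totals alone as the scaling, the median of all genes moved to between -0.25 and -0.18 on the log2 scale in these comparisons, from between -0.03 and -0.02, and small line differences should be read against that shift.

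The members most biased to Huh7 in 2D were ABCG8, ABCC6, ABCA4, ABCG5, ABCB6, ABCG2 and ABCB1. In 2D, Huh7 exceeded HLF 159-fold for ABCC6 (log2 7.31 ± 0.17, edgeR adjusted p = 3.38e-35), 20.5-fold for ABCB6 (4.36 ± 0.37, edgeR adjusted p = 3.4e-14), 21.4-fold for ABCG5 (4.42 ± 0.56, edgeR adjusted p = 1.79e-09), 11.3-fold for ABCG2 (3.50 ± 0.27, edgeR adjusted p = 9.27e-16) and 8.57-fold for ABCB1 (3.10 ± 0.11, edgeR adjusted p = 1.75e-28). The first 3 of these rest on few HLF 2D counts, 17 for ABCC6, 12 for ABCB6 and 4 for ABCG5. Without HLF 2D replicate 1 or 2 the log2 values became 8.36 or 6.68 for ABCC6, 3.76 or 5.30 for ABCB6 and 3.85 or 5.31 for ABCG5, and with limma on log2(FPKM + 1) they were 3.43, 1.16 and 0.72. All 3 were called under each of 12 alternatives. ABCG8 had 314 counts in Huh7 2D and 1 in HLF 2D, a ratio of 337 (95% counting interval 60 to 1.33e+04), and 288 against 1 and 531 against 1 in Inject-Embed and Mix-Embed, ratios of 362 (64.4 to 1.43e+04) and 614 (110 to 2.43e+04). ABCC6, ABCB6, ABCG5, ABCG2 and ABCB1 remained higher in Huh7 in both 3D cultures, with ABCB1 at 21.7-fold in Inject-Embed (4.44 ± 0.11, edgeR adjusted p = 5.14e-33) and 17.5-fold in Mix-Embed (4.13 ± 0.11, edgeR adjusted p = 1.4e-32). Smaller gaps in the same direction were found for ABCF3 (2.07-fold in 2D), ABCD4 (2.39-fold) and ABCA2 (3.07-fold). ABCA4 had 49 counts against 2 in 2D, a ratio of 26.3 (6.89 to 223). ABCA5 was 1.5-fold higher in Huh7 in 2D, 2.54-fold in Inject-Embed and 3.33-fold in Mix-Embed, with edgeR adjusted p = 0.000427, 2.32e-11 and 2.37e-15. ABCC11 was called higher in Huh7 in the 3D cultures, at 1.60 against 0.54 CPM and 1.65 against 0.41 CPM on average, but lost these calls without Huh7 Inject-Embed replicate 1 (log2 0.77 in place of 1.57) or HLF Inject-Embed replicate 2 (1.45), and without HLF Mix-Embed replicate 2 (1.07 in place of 2.07), with adjusted p up to 0.377 and 0.129.

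In 2D the members biased to HLF were led by ABCA3, ABCC1 and, at few counts, ABCC12. ABCA3 (ENSG00000167972, chromosome 16, 2275881 to 2340746, minus strand) had 74.1 and 74.2 CPM in HLF 2D, 77.6 and 74.3 in Inject-Embed and 78.5 and 86.7 in Mix-Embed, against 0.67 to 1.63 in all Huh7 libraries. It was 99.5-fold lower in Huh7 in 2D (log2 -6.64 ± 0.16, edgeR adjusted p = 2.01e-34), 64.9-fold in Inject-Embed (-6.02 ± 0.15, edgeR adjusted p = 2.46e-33) and 53.3-fold in Mix-Embed (-5.74 ± 0.14, edgeR adjusted p = 6.07e-34). ABCC1 was 8.32-fold lower in Huh7 in 2D (-3.06 ± 0.08, edgeR adjusted p = 1.04e-32), 13-fold in Inject-Embed (-3.70 ± 0.09, edgeR adjusted p = 3.68e-33) and 6.8-fold in Mix-Embed (-2.77 ± 0.08, edgeR adjusted p = 4.1e-31). ABCC1 and ABCC6 lie close together on chromosome 16 with their 3' ends facing each other, and showed opposite line bias in every culture. ABCC4 was 2.42-fold lower in Huh7 in 2D (-1.27 ± 0.06, edgeR adjusted p = 4.59e-22), ABCE1 1.75-fold (-0.81 ± 0.06, edgeR adjusted p = 8.73e-17), ABCB9 1.70-fold (-0.76 ± 0.14, edgeR adjusted p = 6.87e-06) and ABCF1 1.66-fold (-0.73 ± 0.06, edgeR adjusted p = 1.64e-15). ABCA12 was not called in 2D and was 4.58-fold lower in Huh7 in Inject-Embed (-2.20 ± 0.40, edgeR adjusted p = 5.08e-06) and 11.4-fold in Mix-Embed (-3.51 ± 0.39, edgeR adjusted p = 6.15e-11).

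A few members changed sides between cultures or sat near the threshold. ABCA7 was 1.24-fold higher in Huh7 in 2D (log2 0.31 ± 0.09, edgeR adjusted p = 0.00211) and 1.52-fold lower in Inject-Embed (-0.61 ± 0.10, edgeR adjusted p = 6.04e-07), and the lines overlapped in Mix-Embed. The 2D call was lost without Huh7 2D replicate 2 (0.22) and with library totals alone (0.15), with adjusted p from 0.00109 to 0.217 over the alternatives. ABCC5 and ABCD3 were 1.33-fold and 1.34-fold higher in Huh7 in 2D and were not called in Mix-Embed, where both had fallen in Huh7. ABCC12 had no count in Huh7 2D and 11 in HLF 2D, at least 3.42-fold lower when the group total is set to a floor of 3, and ABCD2 had 2 counts against 15 in Mix-Embed, a ratio of 6.48 (1.51 to 58.4) in favour of HLF.

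**Figure D5:**
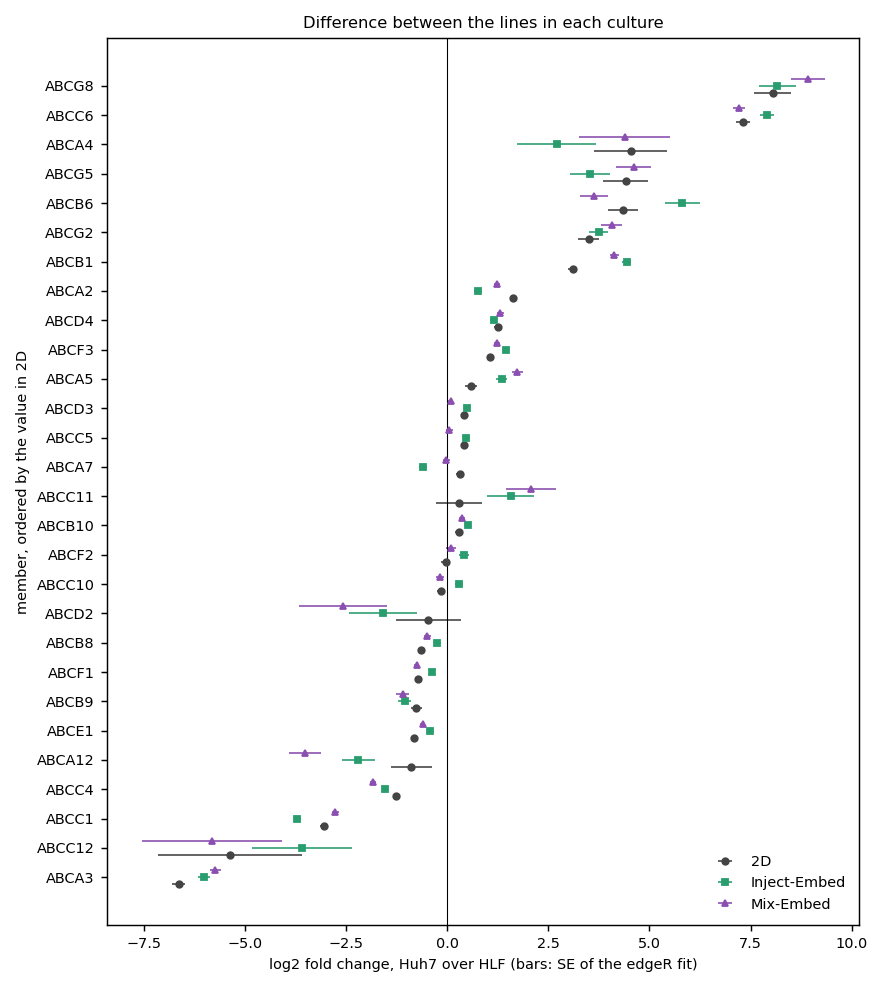
Log2 fold change of Huh7 over HLF for 28 of the 30 tested members in 2D, Inject-Embed and Mix-Embed (points with standard errors), members ordered by the value in 2D. Points to the right are higher in Huh7, up to ABCG8 and ABCC6, and points to the left higher in HLF, down to ABCA3 at -6.64 in 2D and -6.02 in Inject-Embed and, in Mix-Embed, ABCC12 at -5.82 on few counts beside ABCA3 at -5.74.

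The lines were compared in their response to culture by testing the difference of the log2 fold changes, Huh7 minus HLF. For Inject-Embed against 2D, 8 members had a positive and 4 a negative difference, 40%, beside 24.8% of all genes (11.7% positive, 13.1% negative). For Mix-Embed against 2D these were 4 and 5, 30%, beside 20.4% (10.2% and 10.2%), and for Inject-Embed against Mix-Embed 5 and 5, 33.3%, beside 10.6% (4.62% and 5.95%). All 4 ribosome members differed in the first, with 0.37 for ABCE1, 0.35 for ABCF1, 0.46 ± 0.17 for ABCF2 (edgeR adjusted p = 0.0355) and 0.41 ± 0.11 for ABCF3 (edgeR adjusted p = 0.00386). The ABCF2 difference was lost under 8 of 15 alternatives, among them each of Huh7 2D replicates 1 (0.46) and 2 (0.46), HLF 2D replicates 1 (0.44) and 2 (0.51), Huh7 Inject-Embed replicate 2 (0.38) and HLF Inject-Embed replicate 2 (0.46), and the ABCF3 difference without Huh7 Inject-Embed replicate 1 (0.32), with adjusted p up to 0.161 and 0.056. Among the members named here, a difference was called under every alternative for ABCA2, ABCA7, ABCB1, ABCC1, ABCE1 and ABCF1 for Inject-Embed against 2D, ABCA2, ABCA5, ABCB1, ABCC4 and ABCD3 for Mix-Embed against 2D, and ABCA2, ABCC1, ABCD3 and ABCF1 between the 3D cultures.

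Lists of genes that work with or beside the members were counted in the same way. Of 15 partner genes of ABC proteins, all tested, 3 rose and 1 fell in Huh7 Inject-Embed against 2D, with a median log2 fold change of 0.03 beside -0.01 over all genes. The share called, 26.7%, lies near the 29.9% of all genes. The 3 were ETF1 and GCN1, a termination factor and an activator of the kinase GCN2 that act beside ABCE1 and the ABCF proteins, and the cobalamin gene MMADHC, with log2 values of 0.33 ± 0.05, 0.12 ± 0.05 and 0.28 ± 0.06. In HLF Inject-Embed 1 partner rose and 3 fell, 26.7% beside 17.9% of all genes, the latter being ETF1 (-0.35 ± 0.05), GCN1 (-0.40 ± 0.04) and GSPT1 (-0.18 ± 0.05). ETF1 and GCN1 were called in opposite directions in the lines, a difference of 0.68 ± 0.07 and 0.52 ± 0.06 (edgeR adjusted p = 3.31e-10 and 9.99e-09). PELO, HBS1L and EIF2AK4, also listed beside ABCE1 and the ABCF proteins, had no call in Inject-Embed against 2D in either line. GSPT1 had none in Huh7. In Mix-Embed against 2D, none rose and 2 fell in Huh7, 13.3% beside 21.7% of all genes, and 2 rose and 5 fell in HLF, 46.7% beside 29%. Between the 3D cultures 5 were higher and none lower in Huh7 Inject-Embed, 33.3% beside 22.9%.

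Of 13 nuclear receptors and other factors that sense drugs or stress, all tested, 5 rose and 4 fell in Huh7 Inject-Embed, 6 rose and 2 fell in Huh7 Mix-Embed, 3 rose and none fell in HLF Inject-Embed, and 6 rose and 2 fell in HLF Mix-Embed. The shares called were 69.2%, 61.5%, 23.1% and 61.5%, beside 29.9%, 21.7%, 17.9% and 29% of all genes. NR1I2, the pregnane X receptor, averaged 2.78 ± 0.73 CPM (SD, n = 2) in Huh7 2D, 10.0 ± 0.20 in Inject-Embed and 11.3 ± 0.47 in Mix-Embed, log2 rises of 1.84 ± 0.25 and 2.02 ± 0.25 (edgeR adjusted p = 1.24e-07 and 2.28e-08). In HLF it had at most 5 counts per group, and is among those called in Mix-Embed. In 2D 11 of the 13 were higher and 1 lower in Huh7 than in HLF, with a median log2 difference of 2.18 beside -0.02 over all genes, of which 77.2% were called (38.1% higher, 39.2% lower). Of 12 uptake and efflux carriers of other families, 9 were tested, and 3 fell in Huh7 Inject-Embed, 2 rose and 2 fell in Huh7 Mix-Embed, 3 rose and 1 fell in HLF Inject-Embed and 2 rose and 1 fell in HLF Mix-Embed, shares of 33.3%, 44.4%, 44.4% and 33.3% beside the same backgrounds. Of the 9 ABC genes left out by the rule or named otherwise, 7 were tested, and 2 rose and 1 fell in Huh7 Inject-Embed, 1 rose and 1 fell in Huh7 Mix-Embed, and 2 rose and 2 fell in each HLF 3D culture, shares of 42.9%, 28.6%, 57.1% and 57.1%.

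The 9 members under the filter on low counts had few reads in every library. ABCA10 had at most 9 counts in a library, ABCA6 at most 6, ABCA8 at most 2, ABCA9 at most 7, ABCA13 at most 3, ABCB5 at most 6, ABCC8 at most 1, ABCC9 at most 10 and ABCG4 at most 6. These are lipid transporters of the A subfamily, the melanoma-associated ABCB5, the channel regulators and ABCG4, a sterol transporter of brain, and differences among them were mostly not detectable at this depth. ABCB5 was seen in Huh7 only, with 5, 8 and 12 counts in 2D, Inject-Embed and Mix-Embed and none in the 6 HLF libraries. In Mix-Embed that is at least 4.63-fold higher in Huh7, and ABCC9, with 20 counts in HLF and none in Huh7, was at least 5.76-fold lower there. ABCA10 had 12 counts in HLF Mix-Embed and 2 in HLF 2D, a ratio of 6.10 (1.36 to 56.1).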

How the data were processed

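Poly-A selected RNA of 12 libraries was sequenced as paired reads on an Illumina instrument, per the labels' protocols. FastQC, Trimmomatic, STAR 2.7.9a and featureCounts and the build GRCh38 are named in the submitters' processing notes. For the annotation release and strand setting, the sources used here give nothing. The table deposited by the authors holds a read count and an FPKM value per gene and library. The FPKM values deposited by the authors equal the count divided by gene length and by the summed counts of the library in all 167453 values with at least 20 counts, within a relative 1e-06.

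Counts were tested with edgeR 4.0.16 in R 4.3.3 (TMM scaling, filterByExpr with a minimum count of 10, quasi-likelihood F test) over 19342 genes in 1 fit of 6 groups with 6 residual degrees of freedom, with Benjamini-Hochberg adjustment at 0.05. The SE of a log2 fold change was taken as its size divided by the square root of F. CPM use the TMM-scaled total of the tested genes. Ratios that rest on few counts have exact 95% intervals, and a group at 0 was set to a floor of 3 counts over the group. The fitting code was tested on simulated data. Alternatives were DESeq2 1.42.0, limma 3.58.1 on log2(FPKM + 1) and log2(FPKM + 0.1), other scalings, no filter, the compared groups alone, a replicate block and each library left out. The replicate numbers are not stated to pair the libraries and were not treated as pairs.

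Members and gene lists were chosen with earlier results of these data known. For each comparison, the text gives up to 6 members with the highest and up to 6 with the lowest fold change among those past the threshold with at least 1 CPM and no overlap of libraries, and others named in the results. Promoter sequences are from RefSeq (GRCh38.p14), and exon overlaps from GENCODE v44. Protein sequences were not analysed here. The results of 2 tested members are not reported here, though counts over all members include them.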

Additional observations from a re-analysis of the deposited data

Results flagged for a closer look

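The following 15 members responded to culture differently in the 2 lines by a test of the difference itself (edgeR, adjusted p under 0.05 over all genes). Values are the Huh7 log2 fold change minus that of HLF, with 2 libraries in each of the 4 groups.

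For Inject-Embed against 2D, the difference was 1.34 for ABCB1, 0.76 for ABCA5, 0.46 for ABCF2, 0.45 for ABCC10, 0.41 for ABCF3, 0.39 for ABCB8, 0.37 for ABCE1 and 0.35 for ABCF1. It was -0.91 for ABCA7, -0.87 for ABCA2, -0.65 for ABCC1 and -0.27 for ABCC4. ABCB1, ABCE1 and ABCF1 were called in opposite directions in the lines, up in Huh7 and down in HLF. Of these, ABCB1 alone kept both calls under every alternative. The ABCE1 and ABCF1 calls were each lost under 4 of 12 alternatives in Huh7 and 6 of 12 in HLF. ABCC1 fell in both lines, further in Huh7, and its HLF fall lost its call with both limma fits.

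For Mix-Embed against 2D, the difference was 1.15 for ABCA5 and 1.03 for ABCB1. It was -2.62 for ABCA12, -0.57 for ABCC4, -0.38 for ABCA2, -0.36 for ABCC5 and -0.34 for ABCD3. The ABCA12 value rests on under 2 CPM in every Huh7 library.

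For Inject-Embed against Mix-Embed, the difference was 0.47 for ABCC10, 0.42 for ABCC5, 0.41 for ABCD3, 0.37 for ABCF1 and 0.30 for ABCC4. It was -0.94 for ABCC1, -0.58 for ABCA7 and -0.48 for ABCA2.

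Of these 27 differences, 15 were called under each of 15 alternatives. Those of ABCC4 were lost in 7 of 15 for Inject-Embed against 2D and in 8 of 15 between the 3D cultures. The first was lost without replicate 1 of Huh7 2D (-0.20), HLF 2D (-0.22), Huh7 Inject-Embed (-0.24) or HLF Inject-Embed (-0.15). The second was lost without Huh7 Inject-Embed replicate 1 (0.33) or 2 (0.27), HLF Inject-Embed replicate 2 (0.25), Huh7 Mix-Embed replicate 2 (0.25) or HLF Mix-Embed replicate 1 (0.31). The ABCF2 difference was lost in 8 of 15 and that of ABCF3 in 1 of 15.

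The ABCB8 difference was lost in 5 of 15, among them without HLF 2D replicate 1 (0.28), Huh7 Inject-Embed replicate 1 (0.30) or HLF Inject-Embed replicate 1 (0.36). Each ABCC10 difference was lost in 4 of 15. For Inject-Embed against 2D these included leaving out replicate 1 of Huh7 2D (0.38), HLF 2D (0.42) or Huh7 Inject-Embed (0.34). Between the 3D cultures they included Huh7 Inject-Embed replicate 1 (0.36), Huh7 Mix-Embed replicate 1 (0.45) and HLF Mix-Embed replicate 2 (0.43). The ABCC5 difference for Mix-Embed against 2D was lost without Huh7 2D replicate 1 (-0.27), HLF 2D replicate 1 (-0.34) or Huh7 Mix-Embed replicate 2 (-0.30), and that between the 3D cultures without Huh7 Inject-Embed replicate 1 (0.39) or Huh7 Mix-Embed replicate 2 (0.36). The ABCA12 difference was lost without Huh7 2D replicate 2 (-2.30). With limma on log2(FPKM + 1) or log2(FPKM + 0.1), those of ABCA5 for Inject-Embed against 2D (0.43 and 0.70) and of ABCA7 between the 3D cultures (-0.40 and -0.51) were lost.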

How the results depend on the processing

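Of 179 member calls, 112 were made under every alternative, 67 were lost under at least 1 and none changed direction. Lost calls numbered 39 with limma on log2(FPKM + 0.1), 34 with limma on log2(FPKM + 1), 14 with DESeq2, 11 with no filter, 9 with library totals alone, 2 with RLE scaling and 3 of 142 with the compared groups alone. With only 2 libraries a group, fits without 1 library lost 138 of 840 member calls.

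The number of members called fell from 16 to 10 in Huh7 Mix-Embed against 2D with limma on log2(FPKM + 0.1), and from 5 to 3 in HLF Inject-Embed against 2D with both limma fits. For HLF Inject-Embed against Mix-Embed it fell from 6 to 3 with DESeq2, 3 with limma on log2(FPKM + 1) and 2 with limma on log2(FPKM + 0.1), and the number of genes called from 1600 to 982 and 670 with the limma fits. The cause was not tested.

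Leaving out 1 library gave 10 to 14 members called for Huh7 Inject-Embed against 2D (10 without Huh7 2D replicate 1), 10 to 14 for Huh7 Mix-Embed against 2D (10 without Huh7 Mix-Embed replicate 2), 3 to 4 for HLF Inject-Embed against 2D, 3 to 8 for HLF Mix-Embed against 2D (3 without HLF 2D replicate 1 or HLF Mix-Embed replicate 2, 4 without HLF 2D replicate 2) and 1 to 5 for HLF Inject-Embed against Mix-Embed (1 without HLF Inject-Embed replicate 1 or 2, 2 without HLF Mix-Embed replicate 2). Genes called ranged from 2696 (without Huh7 Mix-Embed replicate 2) to 3764 for Huh7 Mix-Embed against 2D, in place of 4203, from 2247 to 2294 for HLF Inject-Embed against 2D, in place of 3471, and from 766 to 1046 for HLF Inject-Embed against Mix-Embed.

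Directions changed only for members without a call. Between the lines in Mix-Embed, ABCD3 came to -0.14 with library totals alone and with both limma fits, and ABCA7 to 0.018 with the replicate block. The line difference of ABCC6 in Mix-Embed against 2D came to 0.51 and 0.19 with limma (pseudocounts 1 and 0.1), 0.48 without HLF 2D replicate 2 and 0.20 without HLF Mix-Embed replicate 1 (lowest -1.15). For ABCG2, values came to -0.048 (HLF Inject-Embed against Mix-Embed, highest 1.83) and -0.16 (line difference, Mix-Embed against 2D, highest 1.72) without HLF Mix-Embed replicate 2, and to -0.01 and -0.031 (line difference, Inject-Embed against 2D, highest 0.68) without HLF 2D or HLF Inject-Embed replicate 1. For ABCG5 the line difference in Mix-Embed against 2D came to -0.10 without Huh7 2D replicate 1 and -0.74 without HLF 2D replicate 2 (highest 0.76). For ABCG8 it came to -1.37 without HLF 2D replicate 2 and -0.07 without HLF Mix-Embed replicate 2 (highest 3.12), and between the 3D cultures to 1.54 and 0.21 without HLF Inject-Embed replicate 1 and HLF Mix-Embed replicate 2 (lowest -2.99). The cause was not tested.

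The replicate block lost 5 of 179 calls. Deviations of same-numbered libraries correlated between -0.0243 and 0.0218 over 19342 genes, so the numbers were not treated as pairs.

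Scaling by library totals alone moved the split of genes called, higher against lower, to 2393 and 2132 (from 1848 and 2587) for Huh7 Inject-Embed against Mix-Embed, to 2163 and 1252 (from 1758 and 1713) and 3434 and 2072 (from 2789 and 2816) for HLF Inject-Embed and Mix-Embed against 2D, and, for line differences, to 1457 and 2466 (from 1968 and 1976) in Mix-Embed against 2D and 1381 and 876 (from 893 and 1151) between the 3D cultures.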
